A study of Mus musculus with 30 samples.

Results

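Microglia isolated on CD11b beads were compared with whole forebrain of the same mice, using only the control arms of the series. All 16 libraries of these arms were taken, of 30 libraries in the series: 8 animals, each with 1 forebrain and 1 isolated-cell library. The control animals of the genotype experiment (n = 4) were heterozygous for interleukin-34 and carry the label IL34 Het. Those of the antibody experiment (n = 4) were wild-type mice given an antibody labelled a-gp120, here written anti-gp120. Each arm held 2 males. After perfusion with saline the brain was divided at the midline, one hemisphere went to bulk forebrain RNA and the other to the CD11b isolation. RNA of both kinds was made into libraries with a low-input SMART-Seq kit. Ages and the antibody's dose and schedule are not given in the sources used here. The isolated-cell libraries are called isolates below, because CD11b is also carried by monocytes, neutrophils and border-associated macrophages.

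Microglia are the resident macrophages of the brain parenchyma. They depend on the receptor CSF1R, which has as ligands CSF1 and IL-34, the latter made in the forebrain mainly by neurons, and they are held in a surveying state by signals such as CX3CL1, CD200 and TGF-beta. Immediate early, heat-shock and cytokine genes are described after the identity genes.

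Total assigned reads ranged from 15487968 to 75158213 in forebrain and from 15755836 to 50541164 in the isolates. Values are CPM, counts scaled to the effective size of each library, and differences are isolate minus forebrain on the log2 scale from edgeR's quasi-likelihood test with the animal as a block. The SE after ± is the size of the difference divided by the square root of its F statistic, and was not estimated separately. A gene is called at a Benjamini-Hochberg adjusted p under 0.05 over all 19952 genes tested. Of these, 7948 (39.8%) were called higher in the isolates and 8581 (43%) lower, with a median difference of -0.06 over all genes. At a size of at least 1 on the log2 scale, 5061 (25.4%) were called higher and 5371 (26.9%) lower. The 8 isolate values all lay above the 8 forebrain values for 5747 genes and all below for 6289. Library profiles correlated at 0.984 to 0.994 between forebrains, 0.955 to 0.985 between isolates and 0.74 to 0.842 across tissues. Between the 4 animals of an arm the median SD of a gene's log2 level was 0.107 and 0.17 in forebrain (Het and anti-gp120), and 0.313 and 0.312 in the isolates. With shares of about 40% called in each direction, a list's count alone says little, so lists are given with their medians.

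Microglial identity genes were all far higher in the isolates. All 18 tested homeostatic genes were called higher in the isolates, with a median of 5.39 and a range from 3.14 (Sparc) to 6.15 (Csf1r), while 2.63% of all genes tested reached 5. Csf1r, the receptor for CSF1 and IL-34, had a lowest, median and highest level of 42.1, 55.1 and 93.7 CPM in forebrain and 3093, 4291 and 5721 CPM in the isolates. The groups did not overlap, and Csf1r was 71.2-fold higher (log2 difference 6.15 ± 0.19 SE, adjusted p = 3.11e-10). P2ry12, the purinergic receptor of surveying microglia, measured 31.7, 43.3 and 58.7 CPM in forebrain against 1315, 1720 and 2743 CPM in the isolates. Its difference was 5.39 ± 0.20, and again every isolate was above every forebrain library. Tmem119, a surface protein used to tell microglia from other macrophages, measured 5.15, 8.42 and 14.4 CPM in forebrain and 372, 543 and 691 CPM in the isolates (5.87 ± 0.17). Summed over the list, the forebrain level was 549 to 624 CPM in Het and 677 to 856 CPM in anti-gp120 animals, and the isolate level was 15477 to 25875 CPM. In bulk libraries, fewer cells of a type and less RNA per cell cannot be told apart.

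**Figure D1:**
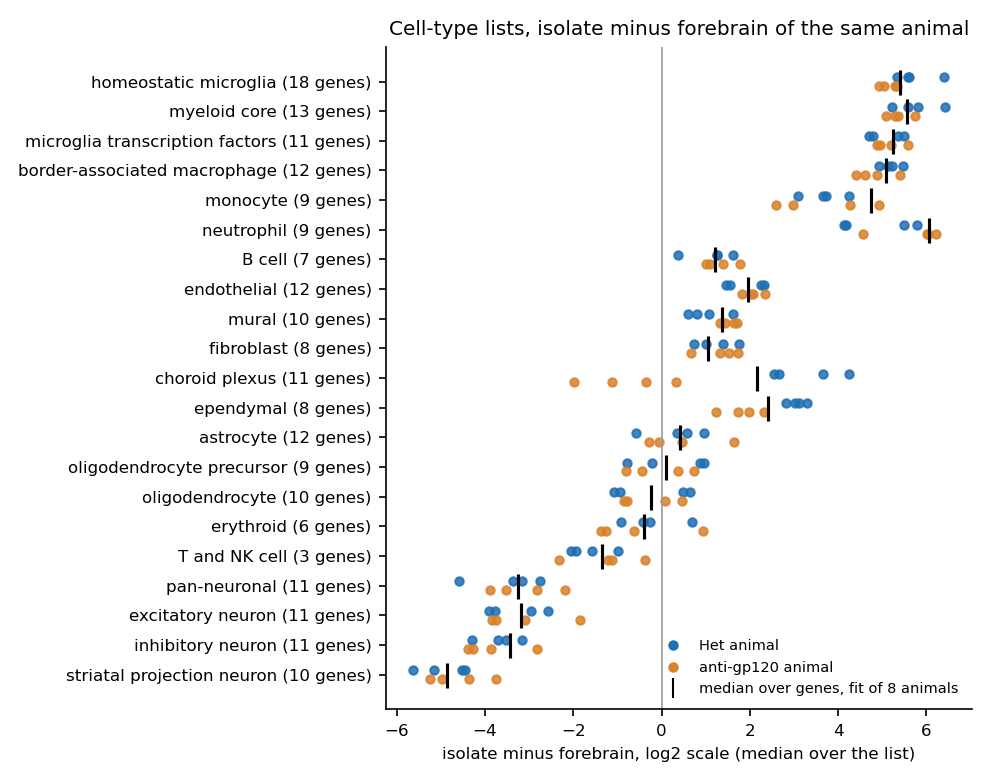
Isolate minus forebrain (log2 scale, horizontal axis) for the median gene of each cell-type list, 1 point per animal (Het blue, anti-gp120 orange), with the median over genes of the fit to 8 animals as a black bar. Points use log2 CPM with a small prior, so they can sit inside the fitted median for lists near 0 in forebrain; the fitted medians are 5.39 for homeostatic and 5.56 for myeloid genes and -3.19 to -4.87 for the neuronal lists, with single animals above and below them.

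General myeloid genes moved with the microglial ones. Of 14 listed, 13 were tested and all 13 were called higher (median 5.56). Ptprc, the pan-leukocyte phosphatase CD45, measured 3.88 to 9.59 CPM in forebrain and 224 to 553 CPM in the isolates (5.99 ± 0.18). Tyrobp, the adaptor of TREM2 and other activating receptors, differed by 5.60 ± 0.17, and Aif1, which encodes IBA1, by 4.77 ± 0.15. The lowest of the list was Coro1a (1.67 ± 0.12), a leukocyte actin regulator whose span overlaps that of Bola2.

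Among transcription factors of microglia, 10 of 11 tested were called higher (median 5.25). Spi1, which encodes PU.1, differed by 5.53 ± 0.16 and Runx1 by 6.62 ± 0.16. Mef2c was called lower (-0.98 ± 0.11), with 855 to 1084 CPM in forebrain and 394 to 645 CPM in the isolates. It is a factor that neurons also use, and its forebrain and isolate levels did not overlap. Spi1 measured 1.94 to 5.01 CPM in forebrain and 94.9 to 196 CPM in the isolates.

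The promoters of Cd53 and Ctss are shown because they were the 2 with the largest differences among identity and myeloid genes whose promoter held the PU.1 core. Cd53 encodes a leukocyte tetraspanin and Ctss the lysosomal protease cathepsin S. Sequences are RefSeq promoters, GRCm38.p6, from 250 bases before to 50 after the start. They run 5′ to 3′ on the gene's strand, with the motif, or its reverse complement, in capitals. The Cd53 window is chr3:106790100-106790399 (minus strand) and the Ctss window chr3:95526536-95526835 (plus strand).
Cd53: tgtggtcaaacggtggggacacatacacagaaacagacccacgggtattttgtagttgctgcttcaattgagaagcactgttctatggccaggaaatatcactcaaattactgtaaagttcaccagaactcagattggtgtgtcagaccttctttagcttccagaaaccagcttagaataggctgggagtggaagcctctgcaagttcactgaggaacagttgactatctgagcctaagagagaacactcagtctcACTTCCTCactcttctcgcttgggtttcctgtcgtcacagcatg
Ctss: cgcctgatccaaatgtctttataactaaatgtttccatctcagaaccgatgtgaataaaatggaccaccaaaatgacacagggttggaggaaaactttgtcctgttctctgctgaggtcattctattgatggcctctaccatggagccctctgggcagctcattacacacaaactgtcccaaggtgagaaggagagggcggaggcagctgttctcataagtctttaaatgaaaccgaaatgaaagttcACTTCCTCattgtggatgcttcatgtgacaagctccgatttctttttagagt
The PU.1 core, GAGGAAGT searched on both strands, was in 2 of 31 promoters (6.45%) of 25 of these genes found in the table, against 3.2% of all 32851 promoters. Cd53 measured 4.35 to 9.40 CPM in forebrain and 237 to 543 CPM in the isolates, a difference of 5.84 ± 0.17. For Ctss the ranges were 20.7 to 57.5 and 1121 to 2893 CPM (5.81 ± 0.19). A match to letters is a description and not a bound site.

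The gene for CD11b itself was all but uncounted. Itgam (chr7:128062640-128118491, plus strand) had 0 counts in all forebrain libraries and 3 counts in all isolates together. It shares nearly its whole span and its strand with the gene model Gm49368 (chr7:128062683-128128160), which had 0 to 6 counts per forebrain library and 60 to 360 per isolate. Its beta chain Itgb2 was counted, at 1.81 to 4.45 CPM in forebrain and 106 to 292 CPM in the isolates (6.05 ± 0.15). The microglial factor Irf8, the neuronal tubulin Tubb3, the adaptor Myd88 and the adenosine receptor Adora3 were at 0 in all 16 libraries. Among protein-coding genes lying wholly inside another gene of the same strand, 419 of 446 (93.9%) were at 0, against 17.9% of 11641 genes with no overlap and 12.2% of 768 genes inside a gene of the opposite strand only. Genes inside another were thus counted differently by strand, but no strand setting is given in the sources used here, and values of overlapping genes are uncertain for that reason. Of 8880 genes with other overlaps, the class of Itgam and Adora3, which each start just before the gene they overlap, 3.09% were at 0. With almost no counts in any library, Itgam could not be used to check the isolation.

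Border-associated macrophages, which sit at the meninges and vessels, share CD11b. All 12 of their listed genes were called higher (median 5.08). Mrc1, the mannose receptor, measured 7.40 to 13.1 CPM in forebrain and 323 to 575 CPM in the isolates (5.49 ± 0.15). Cd163, a scavenger receptor for haemoglobin complexes, differed by 5.03 ± 0.15 and Lyve1, a hyaluronan receptor, by 4.75 ± 0.15. Pf4 had the largest difference (5.65 ± 0.21) and Folr2 the smallest (4.11 ± 0.20), so the list differed by about as much as the homeostatic one.

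Markers of blood myeloid cells were mostly higher too. All 9 tested neutrophil genes were called higher (median 6.05). Members of this and the monocyte list near 0 in forebrain passed the filter on low counts through the isolates. Only a higher call was open to them. S100a9, an abundant neutrophil calcium-binding protein, measured 0.0215, 0.540 and 1.57 CPM in forebrain and 10.1, 18 and 120 CPM in the isolates (5.99 ± 0.33). The list summed to 43.3 to 63.0 CPM in the Het isolates and to 54.2 to 323 CPM in the anti-gp120 isolates. The neutrophil genes Ly6g, Elane and Mpo had too few counts to be tested. Of the monocyte list, 8 of 9 were called higher (median 4.74), among them Ccr2, the receptor for CCL2 (0.196 to 0.996 CPM in forebrain, 7.38 to 32 CPM in the isolates, 4.74 ± 0.17). Vcan was not called (-0.11 ± 0.21), a proteoglycan gene at 69.4 to 86.9 CPM in forebrain.

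Of 11 T and NK cell genes, 8 were untested, with at most 12 counts in any library. The other 3 were called lower in the isolates (median -1.35), the co-receptor Cd4 (8.58 to 15.2 against 3.43 to 6.55 CPM, -1.22 ± 0.16), Trbc2 (-3.18 ± 0.39) and Lck (-1.35 ± 0.27), the last not called in the anti-gp120 animals alone. Of 7 B cell genes, 6 were called higher with a median of 1.20. The median was 4.53 in Het and 4.60 in anti-gp120 animals, each over 4 tested members. Cd79a (1.12 ± 0.31) was not called in the anti-gp120 animals alone (adjusted p = 0.0684). The B cell receptor gene Cd79b (5.07 ± 0.17) and the sialic-acid receptor gene Cd22 (5.38 ± 0.23) differed most. Their isolate levels were 5.43 to 11.4 and 2.62 to 12.3 CPM. Ighm, the immunoglobulin mu heavy chain, measured 9.08, 10.3 and 12.5 CPM in forebrain and 130, 172 and 265 CPM in the isolates (4.10 ± 0.13), with no overlap, and was looked up after its value was seen. The whole list summed to 10.4 to 13.7 CPM in forebrain and 140 to 283 CPM in the isolates. Of 6 tested erythroid genes (median -0.39) 1 was called lower, the anion exchanger Slc4a1 (-0.97 ± 0.35). That call was lost with no replicate block (adjusted p = 0.0609) and without Het animal 1 or 23 or anti-gp120 animal 1 or 7 (0.0566 to 0.0714). Hba-a1, an alpha-globin gene, measured 2.08 to 8.31 CPM in forebrain and 1.49 to 5.61 CPM in the isolates (-0.16 ± 0.27).

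Neuronal lists were lower throughout. All 11 tested pan-neuronal genes were called lower (median -3.24), as were all 11 excitatory (median -3.19), all 11 inhibitory (median -3.43) and all 10 striatal projection neuron genes (median -4.87). Of all genes tested, 8.11% were at or below -3. Snap25, a synaptic vesicle fusion protein, measured 1420, 1573 and 1756 CPM in forebrain and 23.0, 59.4 and 143 CPM in the isolates (-4.74 ± 0.27, 26.7-fold lower). Penk, the enkephalin precursor of striatal neurons, fell from 124 to 176 CPM in forebrain to 0.351 to 4.39 CPM in the isolates (-6.26 ± 0.37). Gad2, which makes GABA, measured 259 to 373 CPM and 6.11 to 25.3 CPM (-4.57 ± 0.23). None of these 3 genes had overlapping groups.

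Neuronal genes did not fall equally. Camk2a, the dendritic kinase of excitatory neurons, had the smallest difference of its list (-0.81 ± 0.26, adjusted p = 0.0146), with forebrain at 1968, 2313 and 2926 CPM and isolates at 501, 1225 and 3262 CPM. Its groups overlapped, and in the anti-gp120 animals alone it was not called. Map2, a dendritic microtubule protein, had the smallest difference of the pan-neuronal list (-1.62 ± 0.24). Slc17a7, the vesicular glutamate transporter of cortical neurons, differed by -2.75 ± 0.26 and Slc17a6, its subcortical counterpart, by -5.43 ± 0.26. Lhx6, an interneuron factor, differed by -1.15 ± 0.17.

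Lower genes were named by size among those with a mean of at least 10 CPM in forebrain, while the lowest difference of all genes was -8.87. Those named included Snhg11 (-7.59 ± 0.48), Trank1 (-6.85 ± 0.36), Cntn5 (-6.78 ± 0.34), Oprk1 (-6.75 ± 0.18), Vip (-6.61 ± 0.24), Cdh9, Robo3, Il1rapl2, C78859, Cntnap3 and Meg3 (-6.35 ± 0.27). Meg3 is a long non-coding RNA of neurons, and C78859 is annotated as one (lncRNA), whereas the annotation used here gives Snhg11 as protein-coding. Snhg11 measured 1673, 2004 and 2174 CPM in forebrain and 2.39, 10.7 and 36.6 CPM in the isolates. Meg3 measured 4357, 5002 and 5673 CPM against 30.3, 53.6 and 144 CPM. As a class, 47.6% of 2707 tested lncRNAs were called lower by at least 1 on the log2 scale and 20.1% higher, while protein-coding genes gave 24% and 25.8%. The median gene span was 17 kb for genes higher and 24.5 kb for genes lower by at least 1, and over 19952 genes the difference and the span had a Spearman correlation of -0.104, a description over genes that share libraries.

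Genes of other glia differed little, in both directions. Of 12 astrocyte genes, 4 were called higher (Gfap, Gja1, Sox9 and Fgfr3) and none lower (median 0.42). Slc1a2, the main glutamate transporter, measured 5202, 5766 and 5914 CPM in forebrain and 1977, 4816 and 13365 CPM in the isolates (-0.19 ± 0.27, adjusted p = 0.534). The isolates lay on both sides of the forebrain range. Gfap, the astrocyte filament protein, had the largest difference of the list (0.83 ± 0.19). Of 10 oligodendrocyte genes (median -0.24), Mbp was called higher (0.65 ± 0.22) and 3 were called lower, and of 9 precursor genes (median 0.10) only Cspg4 was called (1.47 ± 0.12, higher), a gene that pericytes also express. Those lower were Mog (-0.69 ± 0.24), Opalin (-0.71 ± 0.23) and Cldn11 (-0.55 ± 0.23), all genes of the myelin sheath. Cldn11 measured 145.7 to 174.5 CPM in Het forebrain and 57.23 to 216.0 CPM in Het isolates. In anti-gp120 animals it measured 140.4 to 167.2 against 64.37 to 162.7 CPM, and its call was not checked under the alternative settings. The Mbp, Mog and Opalin calls were lost in the Het animals alone, and that of Mog also with no replicate block (adjusted p = 0.0558) and without Het animal 20 (0.0502).

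The isolates differed among themselves in RNA of other brain cells. The summed astrocyte list ran from 3391 CPM in Het animal 21 to 19866 CPM in anti-gp120 animal 15, against 7231 to 8249 CPM in forebrain. The pan-neuronal list ran from 469 to 2229 CPM between the same animals, against 7849 to 8441 CPM in forebrain. Mitochondrial protein-coding genes summed to 142530 CPM in the isolate of anti-gp120 animal 15 and to 40360 to 75107 CPM in the other 7, against 40981 to 48319 CPM in forebrain. The part of this RNA in the differences was not tested. The number of genes called was 16909 without anti-gp120 animal 15.

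**Figure D2:**
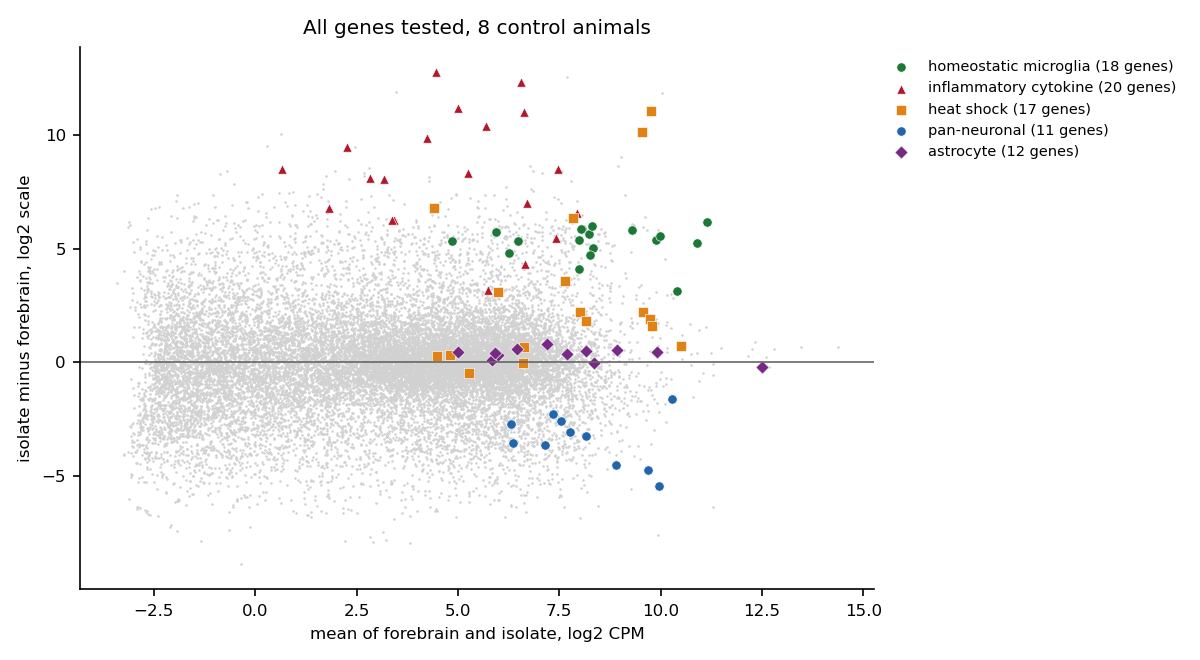
Each tested gene by its mean level (log2 CPM, horizontal axis) and its isolate minus forebrain difference (log2 scale, vertical axis), with 5 lists marked. Homeostatic genes lie between 3.14 and 6.15, inflammatory cytokine genes reach 12.77, heat-shock genes spread from near 0 to 11.05, and astrocyte genes lie around 0.

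All 12 endothelial genes were called higher (median 1.95), among them Cldn5, a tight-junction protein (10.2 to 19.1 against 46.3 to 104 CPM, 2.26 ± 0.10), and Slc2a1, the glucose transporter of the blood-brain barrier (2.67 ± 0.11). Mfsd2a was the lowest (0.49 ± 0.16) and was not called in either experiment alone. Of 10 mural genes (median 1.36), 7 were called higher and Abcc9 lower (-0.67 ± 0.17), a call absent in the anti-gp120 animals alone. The smooth-muscle gene Acta2 measured 3.82, 5.67 and 8.47 CPM in forebrain and 181, 301 and 391 CPM in the isolates (5.67 ± 0.20), while the pericyte genes Pdgfrb (1.47 ± 0.11), Rgs5 (1.26 ± 0.15) and Kcnj8 (-0.06 ± 0.18) differed far less. Tagln (4.85 ± 0.15) and Myh11 (5.62 ± 0.20), both contractile genes of smooth muscle, were looked up after the value of Acta2 was seen. Of 8 fibroblast genes, 6 were called higher (median 1.04).

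In the CSF family, 5 of 7 genes were called higher and 1 lower (median 4.51). Il34 measured 18.5, 26.8 and 38.1 CPM in forebrain and 5.05, 10.2 and 17.6 CPM in the isolates (-1.45 ± 0.14, adjusted p = 1.65e-06). Every isolate was below every forebrain library. In forebrain the Het animals, heterozygous for Il34, spanned 18.5 to 23.1 CPM and the anti-gp120 animals 30.5 to 38.1 CPM. Csf1, the other ligand, went the opposite way: 10.6, 13.9 and 14.8 CPM in forebrain and 108, 322 and 599 CPM in the isolates (4.51 ± 0.27). Ptprz1, a phosphatase that also binds IL-34, was not called (0.14 ± 0.24). The receptor genes Csf2rb (6.31 ± 0.19), Csf3r (6.14 ± 0.14) and Csf2ra (1.6 ± 0.13) were higher in the isolates.

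Of 22 tested genes of other neuron to microglia signalling, 16 were called higher and 5 lower (median 3.24). Cx3cl1, the membrane chemokine of neurons, measured 464, 588 and 640 CPM in forebrain and 20.6, 36.8 and 46.3 CPM in the isolates (-4.05 ± 0.16). Its receptor Cx3cr1 measured 30.5, 39.1 and 57.3 CPM against 1544, 1923 and 2427 CPM (5.56 ± 0.16). For the inhibitory pair, the ligand Cd200 was lower (-1.85 ± 0.10) and the receptor Cd200r1 higher (3.85 ± 0.21). Likewise Cd47, the signal that restrains phagocytosis, was lower (-1.29 ± 0.08) and its receptor Sirpa higher (1.93 ± 0.11). Of the TAM receptors that take up dying cells, Mertk (3.70 ± 0.11) and Axl (1.78 ± 0.08) were higher and Tyro3 lower (-2.64 ± 0.20). Their bridging ligands Gas6 (1.62 ± 0.10) and Pros1 (4.01 ± 0.11) were both higher in the isolates. The fifth gene called lower was Nt5e (-0.95 ± 0.15), an enzyme that makes extracellular adenosine.

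**Figure D3:**
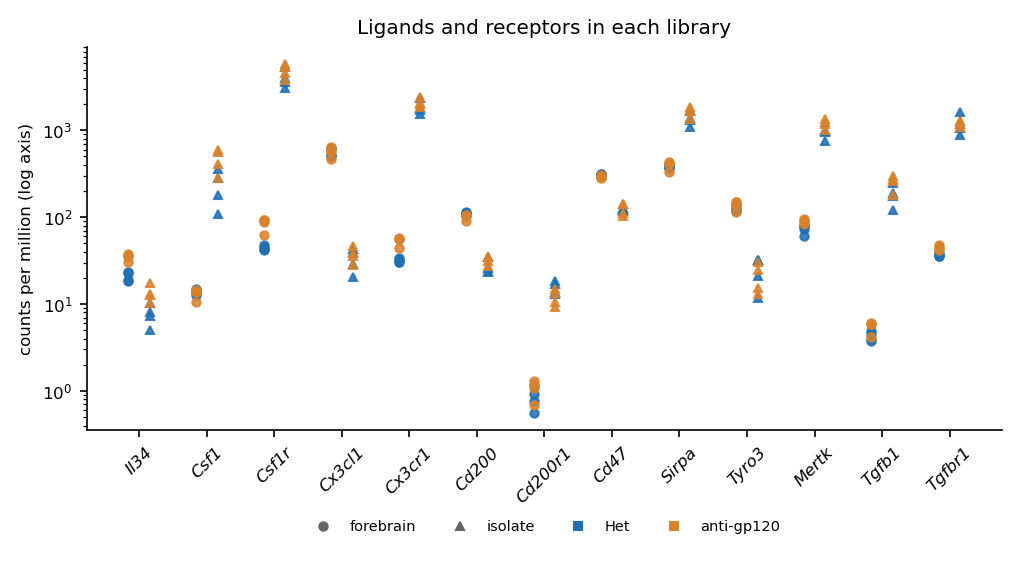
Level of 13 ligand and receptor genes in each of the 16 libraries (CPM, log axis), forebrain as circles and isolates as triangles, Het in blue and anti-gp120 in orange. Cx3cl1 lies at 464 to 640 CPM in forebrain and at 20.6 to 46.3 CPM in the isolates, and Csf1r at 42.1 to 93.7 and 3093 to 5721 CPM.

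TGF-beta genes were nearly all higher, 17 of 18 (median 1.70), while Itgb8 differed by -0.54 ± 0.19. Its call was lost in Het (adjusted p = 0.127) and in anti-gp120 animals alone (0.084), with no replicate block (0.102) and without Het animal 21 or anti-gp120 animal 1 or 8 (0.0566 to 0.0591). Itgb8 encodes the integrin chain that activates latent TGF-beta from the side of other brain cells. Tgfb1, the ligand, measured 3.72, 4.68 and 6.08 CPM in forebrain and 120, 220 and 295 CPM in the isolates (5.45 ± 0.13). Nrros, which tethers latent TGF-beta1 on microglia, differed by 5.13 ± 0.13 and its relative Lrrc32 by 3.18 ± 0.14. The receptor genes Tgfbr1 (4.87 ± 0.12) and Tgfbr2 (4.39 ± 0.10) were higher, as was the inhibitory target Smad7 (3.45 ± 0.10).

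In the complement system, 15 of 19 tested genes were called higher and 3 lower (median 3.19). The 3 chains of C1q, the initiator of the classical pathway, differed by 5.87 ± 0.18 (C1qa), 5.70 ± 0.17 (C1qb) and 5.74 ± 0.19 (C1qc). C1qa measured 7.75, 10.2 and 21.6 CPM in forebrain and 499, 695 and 1023 CPM in the isolates. The receptors C3ar1 (7.26 ± 0.20) and C5ar1 (7.23 ± 0.18) had the largest differences. The neuronal inhibitor Csmd1 was the lowest, with 478 to 633 CPM in forebrain and 17.2 to 42.3 CPM in the isolates (-4.29 ± 0.19). C2 (-0.92 ± 0.28) and Cfp (-0.35 ± 0.11) were also called lower, C2 not in the Het animals alone and Cfp not in the anti-gp120 animals alone.

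Signalling genes behind immune receptors gave 18 of 18 higher (median 5.49), among them Syk (5.37 ± 0.12), Btk (5.47 ± 0.19) and Plcg2 (5.49 ± 0.13), kinases and a phospholipase downstream of TREM2 and Fc receptors. Toll-like receptor genes gave 15 of 15 (median 5.21), with Tlr2 at 0.713 to 1.69 CPM in forebrain and 108 to 358 CPM in the isolates (7.63 ± 0.14). Ion channels of microglia gave 8 of 10 higher (median 2.77). Kcnk13, the THIK-1 potassium channel, differed by 3.95 ± 0.18 and the proton channel gene Hvcn1 by 5.93 ± 0.14, whereas Kcna3 was lower (-1.55 ± 0.17). All 18 lysosomal genes (median 3.13) and all 14 antigen presentation genes (median 4.47) were called higher. The protease gene Ctsz was the highest of the former (4.68 ± 0.13) and the saposin precursor Psap the lowest (1.21 ± 0.11). Cd86, a co-stimulatory ligand, measured 2.13 to 5.06 CPM in forebrain and 191 to 726 CPM in the isolates (7.10 ± 0.22).

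Pairs of related genes were compared within each pair. They were set with a member known from neurons or brain first and one known from blood-derived or many cell types second. In 18 of 24 pairs the first was called lower and the second higher, where 43% of all genes were called lower and 39.8% higher. The pairs were chosen for where their members are known to be expressed, so the count describes them and supports no wider pattern. The synaptic Snap25 (-4.74 ± 0.27) contrasted with the widely expressed Snap23 (1.79 ± 0.13), and Vamp2 (-1.88 ± 0.22) with Vamp8 (3.67 ± 0.09), both pairs being vesicle fusion proteins. Dock3 was lower (-3.53 ± 0.23) and Dock2, the leukocyte exchange factor for RAC, higher (5.91 ± 0.17). The phosphoinositide phosphatases Inpp4a (-1.15 ± 0.06) and Inpp5d (5.57 ± 0.15) split likewise. For fuel use, the glucose transporter Slc2a3 was lower (-3.10 ± 0.07) and Slc2a1 higher. Hexokinase Hk1 measured 272 to 329 CPM in forebrain and 84.9 to 172 CPM in the isolates, and Hk2 measured 3.90 to 5.50 and 137 to 433 CPM. The 6 pairs that did not split included Eno2 and Eno1, Kif5a and Kif5b, Rac1 and Rac2, Pfkp and Pfkl, and Syt1 and Syt11.

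**Figure D4:**
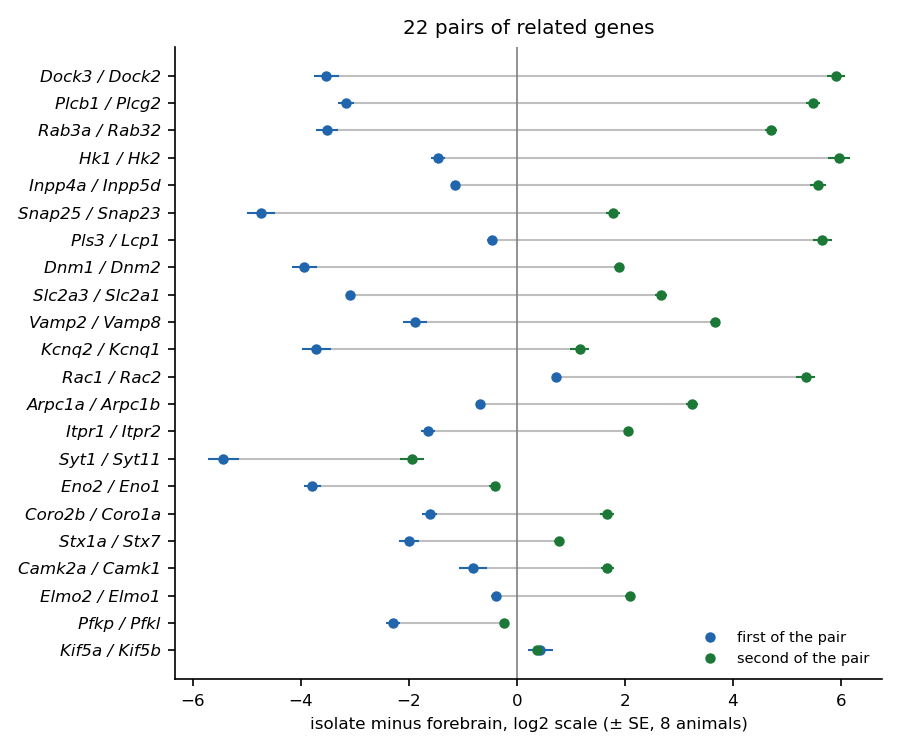
Isolate minus forebrain difference (log2 scale, ± SE, 8 animals) of both members of 22 gene pairs, the first in blue and the second in green. In 17 pairs the blue point lies below 0 and the green above it, both called, with Dock3 and Dock2 the farthest apart at -3.53 and 5.91.

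Glycolytic and cholesterol synthesis genes were mostly lower. Of 18 glycolytic genes, 13 were called lower and 3 higher (median -0.54). Hk2 (5.96 ± 0.21) and Hk3 (5.66 ± 0.16) were higher, as was Gapdh by less (0.42 ± 0.11), and Eno2 was the lowest (-3.79 ± 0.16). Gapdh was counted at only 7.264 to 10.47 CPM in forebrain and 8.165 to 16.55 CPM in the isolates. Of 13 cholesterol synthesis genes, 10 were called lower (median -0.63), among them the synthase Hmgcs1 (428 to 554 against 166 to 465 CPM, -0.88 ± 0.17) and the epoxidase Sqle (-0.86 ± 0.15), and 1 was called higher. Of 79 ribosomal protein genes, 70 were called higher and 3 lower (median 1.25). The 3 lower were Rpl3l (-1.63 ± 0.27), the heart and skeletal muscle form of Rpl3, Rpl15 (-0.68 ± 0.06) and Rpl5 (-0.44 ± 0.07). All 15 cell-cycle genes were called higher (median 1.58), with Mki67 at 9.30 to 15.0 CPM in forebrain and 31.8 to 71.3 CPM in the isolates (2.04 ± 0.13).

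Cytokine, chemokine and stress genes were among those with the largest differences. Every microglial library came from isolated cells and every forebrain library from whole tissue, so effects of isolation and of cell type cannot be told apart. All 20 cytokine genes were called higher with a median of 8.22, the highest of the 42 lists. Members near 0 in forebrain, such as Cxcl2 and Il10, passed the filter on low counts through the isolates, so only a higher call was open to them. The count and the rank of this median therefore describe the list and are no test. The 12 higher genes named by size were Cxcl2, Rgs1, Ccl4, Gdf15, Atf3, Tnf, Hspa1b, Ccl3, Osm, Hspa1a, Ccl2 and Zfp36. Rgs1, a regulator of G-protein signalling that is in none of these lists, measured 0 to 0.173 CPM in forebrain and 168 to 847 CPM in the isolates (12.53 ± 0.32). Ccl4, a chemokine for myeloid cells, measured 0, 0.0286 and 0.0729 CPM in forebrain and 113, 168 and 336 CPM in the isolates (12.32 ± 0.20). Ccl3 measured 0 to 0.151 against 76.7 to 366 CPM (11.00 ± 0.25). Tnf was at 0 to 0.0892 CPM in forebrain and 15.5 to 105 CPM in the isolates (11.18 ± 0.36). For genes this near 0 in forebrain, the SE can understate the error from counting. Cxcl2, a neutrophil chemokine, had 1 count over all forebrain libraries and 10322 over the isolates, a ratio of 18500 with a 95% exact interval of 3330 to 733000 that covers counting error only. Gdf15, a stress cytokine, had 1 count against 4926 (ratio 8850, interval 1590 to 350000), and the anti-inflammatory Il10 had 2 against 748 (672, 185 to 5560). Il1b differed by 8.33 ± 0.32 and Il1a by 8.51 ± 0.24, and Ptgs2, the prostaglandin synthase that neurons also make, by least (3.17 ± 0.30).

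Immediate early genes moved in both directions. Of 20, 17 were called higher (median 4.41). Fos measured 4.93, 18.3 and 32.1 CPM in forebrain and 262, 716 and 975 CPM in the isolates (5.34 ± 0.37). Jun differed by 5.80 ± 0.17, and Atf3, a stress-induced factor, measured 0.194, 0.613 and 1.00 CPM against 1204, 2139 and 3213 CPM (11.85 ± 0.37). The 3 called lower were Npas4 (-3.89 ± 0.20), Arc (-1.64 ± 0.20) and Egr3 (-0.94 ± 0.21), the first an activity-induced factor of neurons and the second a regulator of their synapses. Arc and Egr3 were named after their values were seen.

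Of 17 heat-shock genes (median 1.91), 14 were called higher and Hsf2, a heat-shock factor gene, lower (-0.44 ± 0.09). Hspa1b, an inducible HSP70 gene, measured 0.528, 0.775 and 1.57 CPM in forebrain and 1256, 1678 and 2253 CPM in the isolates (11.05 ± 0.25). Its near-identical copy Hspa1a measured 1.13, 1.33 and 1.70 CPM against 1050, 1457 and 2011 CPM (10.12 ± 0.17). How reads were split between these copies is uncertain. Hspb1, a small heat-shock protein, differed by 6.78 ± 0.14. Endoplasmic reticulum stress genes gave 10 of 10 higher (median 1.64), with Ddit3, which encodes CHOP, at 3.18 ± 0.23 and the chaperone Hspa5 at 1.95 ± 0.17.

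Promoters of 4 genes are shown, for the heat-shock and the immediate early list the 2 members with the largest differences within that list whose promoter held a motif searched for it. The heat-shock element core is GAANNTTC, the cAMP response element is TGACGTCA and the serum response element is given by name, each searched on both strands and in capitals below. No searched motifs overlapped in these windows. Coordinates are GRCm38.p6 and all 4 lie on the minus strand: Hspa1b chr17:34959189-34959488, Hspa1a chr17:34972107-34972406, Zfp36 chr7:28379179-28379478 and Btg2 chr1:134079106-134079405.
Hspa1b: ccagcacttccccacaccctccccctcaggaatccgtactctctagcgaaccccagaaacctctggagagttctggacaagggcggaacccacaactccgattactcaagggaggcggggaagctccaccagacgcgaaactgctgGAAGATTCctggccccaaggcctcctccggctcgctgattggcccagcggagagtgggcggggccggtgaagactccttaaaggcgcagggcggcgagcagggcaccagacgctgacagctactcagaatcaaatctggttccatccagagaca
Hspa1a: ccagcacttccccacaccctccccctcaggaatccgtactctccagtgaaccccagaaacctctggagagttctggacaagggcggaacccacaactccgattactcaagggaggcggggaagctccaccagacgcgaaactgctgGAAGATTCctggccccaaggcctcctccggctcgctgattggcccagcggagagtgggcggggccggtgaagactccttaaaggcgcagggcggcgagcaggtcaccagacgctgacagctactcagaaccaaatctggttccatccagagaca
Zfp36: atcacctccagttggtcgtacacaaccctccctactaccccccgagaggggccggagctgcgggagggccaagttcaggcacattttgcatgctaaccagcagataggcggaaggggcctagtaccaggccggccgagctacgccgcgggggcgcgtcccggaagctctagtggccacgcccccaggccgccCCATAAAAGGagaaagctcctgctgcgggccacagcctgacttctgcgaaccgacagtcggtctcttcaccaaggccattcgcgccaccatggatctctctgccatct
Btg2: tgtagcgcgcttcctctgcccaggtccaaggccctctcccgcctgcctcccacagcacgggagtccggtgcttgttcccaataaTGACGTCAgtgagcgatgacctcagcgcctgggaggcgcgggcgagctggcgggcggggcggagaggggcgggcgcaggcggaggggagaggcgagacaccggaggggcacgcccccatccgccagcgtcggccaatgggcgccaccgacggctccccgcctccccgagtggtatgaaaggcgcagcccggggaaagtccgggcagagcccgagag
The Hspa1b and Hspa1a windows differed at 4 of 300 bases, and in both the heat-shock element core began at base -104 from the start. That core was in 10 of 18 promoters (55.6%) of 12 heat-shock genes in the table, against 7.86% of all promoters. The serum response element, at base -58 of Zfp36, was in 5 of 20 promoters (25%) of 16 immediate early genes, against 1.63%. Those 5 promoters belonged to only 2 genes, Egr2 and Zfp36, since the table holds several promoters of a gene. The cAMP response element, at base -166 of Btg2, was in 2 of those 20 (10%), against 1.79%. Zfp36, which destabilises cytokine mRNAs, measured 1.29, 1.89 and 2.44 CPM in forebrain and 389, 985 and 1461 CPM in the isolates (9.04 ± 0.21), and the growth regulator Btg2 differed by 5.13 ± 0.27.

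Interferon-response genes were all higher, 15 of 15 (median 2.96), from Ifit2 (0.81 ± 0.19) to Oas2 (4.84 ± 0.25), both antiviral effectors. Of 13 genes known from disease-associated microglia, 12 were called higher (median 2.61). Clec7a, a beta-glucan receptor, measured 0.173 to 0.546 CPM in forebrain and 28.3 to 71.6 CPM in the isolates (7.06 ± 0.15). Apoe, a lipid carrier that astrocytes also secrete, measured 418 to 642 and 1249 to 2412 CPM (1.65 ± 0.15). Lpl, lipoprotein lipase, was called with a small difference (0.26 ± 0.11, adjusted p = 0.0384). Its call was lost in each experiment alone (0.116 in Het, 0.13 in anti-gp120) and without Het animal 20 or 21 or anti-gp120 animal 1 or 8 (0.0613 to 0.103).

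Both experiments gave the tissue difference on their own. In the Het animals 36.4% of 19266 genes were called higher and 39% lower, and in the anti-gp120 animals 37.6% of 18120 were called higher and 38% lower. Of 18075 genes tested in both, 12555 were called in both, and 12509 of these had the same sign. Csf1r differed by 6.44 in Het and 5.91 in anti-gp120 animals, P2ry12 by 5.70 and 5.12, and Il34 by -1.50 and -1.36. Hspa1a differed by 10.13 and 10.14 and Ccl4 by 12.38 and 12.29.

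The size of the tissue difference itself differed between the experiments for 147 genes by the interaction term. Genotype, treatment and experiment cannot be told apart here. Taken as anti-gp120 minus Het, 2 genes (0.01%) were called higher and 145 (0.727%) lower, against 42 and 378 with DESeq2 and 11 and 207 with no replicate block. Of the 145 genes called lower by edgeR with the block, 137 had a value in both experiments, and for these the median tissue difference was 0.84 in Het and -0.92 in anti-gp120 animals. In 35 the isolate was called higher than forebrain in Het and lower in anti-gp120 animals. Htr2c, a serotonin receptor gene abundant in choroid plexus, measured 72.0, 82.9, 86.5 and 96.8 CPM in the Het forebrains and 43.1, 49.4, 97.4 and 101 CPM in the Het isolates. In the anti-gp120 animals it measured 56.6 to 77.3 CPM in forebrain and 0.374, 0.819, 1.10 and 2.07 CPM in the isolates (difference -5.61 ± 0.39, adjusted p = 0.00153). Forebrain levels overlapped between the arms, while isolate levels did not.

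Car12, a carbonic anhydrase, measured 21.7 to 51.5 CPM in Het and 0.187 to 1.41 CPM in anti-gp120 isolates, with forebrain at 13.8 to 18 CPM in all (-5.74 ± 0.51, adjusted p = 0.00227). Clic6, a chloride channel relative, measured 36.1 to 80.8 and 0.389 to 2.67 CPM in the isolates (-4.25 ± 0.36). Gmnc, a regulator of multiciliated cells, differed by -4.47 ± 0.41, Oca2 by -4.19 ± 0.33, Atp2b3 by -3.67 ± 0.31, Slc24a4 by -2.14 ± 0.17 and Cfap69, a cilium gene, by -2.22 ± 0.21. Of 11 choroid plexus genes 6 were called, all lower in this difference (Clic6, Kl, Prlr, Aqp1, Otx2 and Sostdc1), and the list had a median tissue difference of 3.22 over 11 members in Het and 0.05 over the 8 members tested in anti-gp120 animals. Its summed level was 156 to 202 CPM in Het forebrain and 1767 to 4069 CPM in Het isolates, against 10.3 to 65.6 and 20.2 to 31.3 CPM in the anti-gp120 animals. Ttr, the thyroxine carrier of this epithelium, measured 1542 to 3592 CPM in the Het isolates and 0.0624 to 2.99 CPM in the anti-gp120 isolates, and its forebrain level was 121 to 159 CPM in Het and 0.0627 to 41.5 CPM in anti-gp120 animals. The interaction was not called for Ttr (-4.30, adjusted p = 0.648). The ependymal list had medians of 3.09 and 1.79, with 1 member called. The part of choroid plexus tissue in the isolates in these 147 calls was not tested.

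Of the 2 genes called in the other direction, Ackr1 is an atypical chemokine receptor of venules whose span overlaps that of the neuronal adhesion gene Cadm3. Ackr1 measured 4.88, 5.10, 5.25 and 8.07 CPM in Het and 13.3, 25.3, 34.2 and 54.3 CPM in anti-gp120 isolates, with 36.3 to 49.7 CPM in forebrain (2.40 ± 0.36, adjusted p = 0.0208). Over all 8 animals its tissue difference was -1.82 ± 0.43. This call was lost without any 1 of the Het animals or without anti-gp120 animal 7 (adjusted p = 0.0517 to 0.0702). Leaving out single animals lowered the count of 147 to between 28 (Het animal 20 omitted) and 126 (anti-gp120 animal 1 omitted). Omitting Het animal 1, 21 or 23 gave 74, 96 or 63 calls, and omitting anti-gp120 animal 7, 8 or 15 gave 35, 48 or 85.

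**Figure D5:**
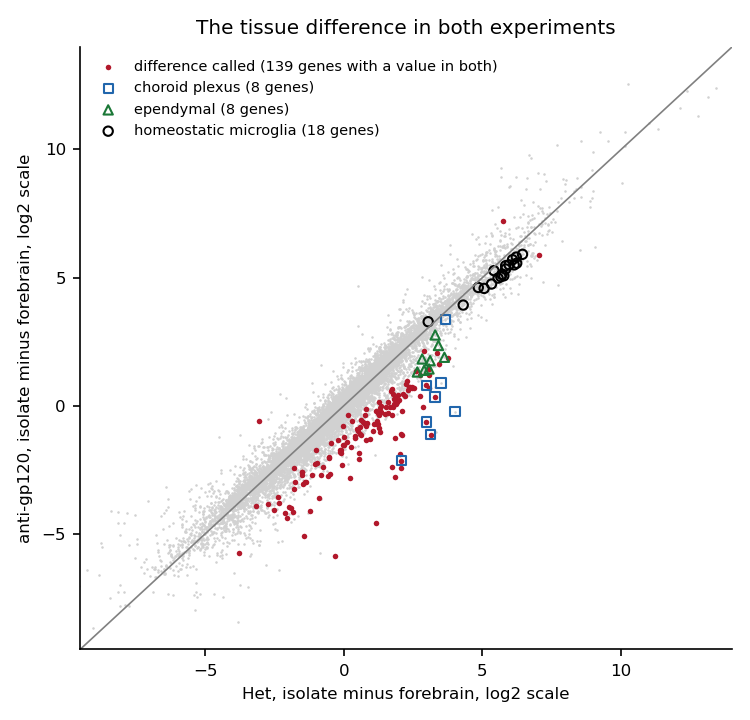
Isolate minus forebrain in Het animals (horizontal axis) against anti-gp120 animals (vertical axis), log2 scale, 1 point per gene, with the line of equal difference. Of the 147 genes whose difference was called, 139 have a value in both and are red; homeostatic genes lie near the line and choroid plexus genes mostly below it, the list medians being 3.22 (11 members) and 0.05 (8 members).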

How the data were processed

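RNA of 16 libraries (8 control mice, forebrain and CD11b isolate of each) was read from the deposited table of raw counts per gene. Per the submitters' processing notes, the authors used STAR 2.7.5c, featureCounts 1.6.3 and R 4.4.0 with GRCm38; the roles of the tools and any strand setting are not given in the sources used here. The table's gene length column (another unit, deposited by the authors) equals the GENCODE M21 gene span for 51183 of 51752 genes, not exonic length, and CPM is not corrected for length. Whether reads in introns were counted is not given in the sources used here. Another 6 count columns match no labelled sample and were not used. Counts were fitted with edgeR 4.0.16 (R 4.3.3; TMM scaling, filterByExpr, quasi-likelihood F test, animal as block, Benjamini-Hochberg over all genes tested), for all 8 animals, each experiment and the interaction. The pairing comes from the labels: both hemispheres belong to one animal. Deviations of the libraries of one animal correlated at a median of 0.112 (0.0512 to 0.177, 8 pairs) and of different animals at -0.0474. Depth per library is 15487968 to 75158213 counts. In data simulated from these libraries, 2-fold changes were recovered in 95.5% of cases in the 8-animal fit and 17.9% in the interaction. The simulation gave both tissues the forebrain levels, with no animal effect, and changed only 200 genes, all expressed in forebrain. Its rates need not hold for genes near 0 in forebrain, or where most genes differ as they do here.

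The comparison and the 42 lists were chosen with earlier results of these data known. Genes named are the 12 largest called in each direction and in each experiment with at least 10 CPM, up to 8 in each direction of the interaction, the first 3 tested, highest and lowest of each list, the members of the CSF, TGF-beta, neuron to microglia, complement and pair lists, and the most abundant genes. Promoter examples follow a rule on size and motif. Other genes, named because they make up a small count, were chosen after their values were seen. Some genes that these rules name are not reported here. Alternatives were RLE size factors, DESeq2 1.42.0, no filter, no replicate block, each experiment alone and each animal left out. P-values are set against how the isolate minus forebrain difference varied between these animals, with each gene's spread moderated over genes.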

Additional observations from a re-analysis of the deposited data

Results flagged for a closer look

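Over 132 sets of 4 animals of one arm, 3 held an animal far from the other 3; chance flags about 1 in 20 such sets. The neutrophil list median of anti-gp120 animal 15 was 4.56, where the other 3 lay between 6.01 and 6.22. The immune receptor signalling median of anti-gp120 animal 1 was 5.56, with 5.14 to 5.18 in the others. Vip differed by -5.53 in anti-gp120 animal 15 and by -6.57 to -6.55 in the others.

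The tissue difference itself differed between the experiments for 147 genes by edgeR's interaction term. Those named, as anti-gp120 minus Het on the log2 scale, were Ackr1 (2.40), Htr2c (-5.61), Oca2 (-4.19), Slc24a4 (-2.14), Clic6 (-4.25), Atp2b3 (-3.67), Car12 (-5.74), Gmnc (-4.47) and Cfap69 (-2.22). Het genotype and experiment cannot be told apart. Of 11 choroid plexus genes, 6 were themselves among the 147, Clic6 included, and the others, such as Ttr, were not.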

How the results depend on the processing

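The count of called genes in the 8 animals (16529) stayed within 1.5 times under every alternative run: 16516 with RLE factors, 17848 without the filter, 16683 with DESeq2, 16663 with no replicate block, and 16071 to 16909 with 1 animal left out. With no replicate block, the Het and anti-gp120 fits called 14812 and 13746 genes, against 14532 and 13711 when paired by animal; leaving out animals gave 12693 to 14279 and 12023 to 14654. The interaction count (147) was 140 with RLE factors, 169 without the filter, 218 with no replicate block, 420 with DESeq2 (all 147 among them) and 28 to 126 with 1 animal left out; the cause was not tested, beyond fewer animals in the last. The split pairs numbered 18, or 16 in the anti-gp120 animals alone. The 285 named differences had 3690 values under alternatives, of which 3601 kept direction and call, 54 lost the call, 15 gained it, 18 moved without a call and 2 reversed. Those 2 were Ttr (-0.23 in anti-gp120 animals alone, 2.95 in all) and Clic6 (-2.15 against 0.30). The 42 list medians had 462 such values, of which 6 moved, 4 of them for the B cell list (1.20 in all, 2.55 to 4.60), whose tested members differ between fits. The depth of single isolates limits genes under 1 CPM, and in the simulation the interaction recovered few changes of 2-fold.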
